A study of Caenorhabditis elegans with 5 samples.

Results

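The 129 nuclear genes that the Ensembl annotation of the C. elegans genome classes as snRNA, of 46890 nuclear genes in all, were examined for binding of the AT-hook protein ATTF-4. All 129 annotated snRNA genes were taken, so no measured value chose them. They comprise 18 sls-2 genes, 12 sls-1 genes, 10 smy genes and 89 others, which fell into families by sequence. The data were lists of ChIP-seq peaks from whole L4 larvae of strain OP219 (unc-119(ed3) III; wgIs219), sexes pooled, which carries an integrated transgene for ATTF-4 (C05D10.1) with a GFP-FLAG tag at its C terminus. The 5 libraries came from 3 biological replicates, of which replicates 2 and 3 had 2 technical libraries each, and all of them form a single condition without an untagged or mutant counterpart. The strain is a single line, and whole animals give no view of which cells carried a peak. For each gene, a peak was counted where its summit lay within 500 bp of the gene.

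Small nuclear RNAs are the catalytic and recognition core of the spliceosome. U1 pairs with the 5′ splice site, U2 with the branch point, and U6, which travels with U4 and U5, with the 5′ splice site during catalysis. In nematodes a further class, the spliced leader RNAs, donates its own 5′ end to messenger RNAs by trans-splicing. SL1, from the sls-1 genes, is added to the first or only message of a transcription unit, and SL2, from the sls-2 genes, mainly to downstream messages of operons. SmY RNAs, from the smy genes, are associated with trans-splicing. Most snRNA genes are transcribed by RNA polymerase II and the U6 genes by RNA polymerase III, from promoters with a proximal sequence element that the SNAPc complex binds.

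The strongest summits belonged to sls-2 genes. Their sequences are shown because 4 of the 18 sls-2 genes were the only snRNA genes near a peak of the final set. That is the list that passed the submitters' threshold on the irreproducible discovery rate (IDR). The sequences, on the gene strand of ce11, come from the RefSeq copy of the reference assembly. Capitals mark the bases before the first GT that follows the leader, where the leader is donated. The genes are sls-2.2 (chrII:5543598-5543707, plus strand), sls-2.3 (chrII:5544164-5544273, minus strand), sls-2.1 (chrII:5844865-5844974, plus strand), sls-2.16 (chrIII:7141391-7141499, plus strand), sls-2.10 (chrIV:9130721-9130829, minus strand) and sls-2.11 (chrIV:9140415-9140523, plus strand).
sls-2.2: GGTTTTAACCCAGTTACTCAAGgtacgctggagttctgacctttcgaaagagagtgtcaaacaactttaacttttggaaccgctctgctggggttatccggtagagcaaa
sls-2.3: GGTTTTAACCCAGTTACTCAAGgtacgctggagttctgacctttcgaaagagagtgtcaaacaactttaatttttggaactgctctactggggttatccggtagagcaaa
sls-2.1: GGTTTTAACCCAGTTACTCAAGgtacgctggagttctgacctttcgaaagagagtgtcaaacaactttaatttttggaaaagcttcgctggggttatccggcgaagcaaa
sls-2.16: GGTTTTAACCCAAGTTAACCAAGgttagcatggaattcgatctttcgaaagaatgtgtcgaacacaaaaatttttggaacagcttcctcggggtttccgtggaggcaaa
sls-2.10: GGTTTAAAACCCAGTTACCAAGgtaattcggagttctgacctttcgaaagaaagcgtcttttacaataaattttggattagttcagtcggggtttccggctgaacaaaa
sls-2.11: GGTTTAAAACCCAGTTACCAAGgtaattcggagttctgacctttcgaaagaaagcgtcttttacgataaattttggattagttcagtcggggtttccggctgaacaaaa

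The leader of sls-2.1, sls-2.2 and sls-2.3 is the same 22 bases, and sls-2.16 has a leader of 23 bases. All 18 sls-2 genes begin with GGTTT, and 13 of them carry ATTTTTGG, the kind of U-rich run that Sm proteins bind in these RNAs. Over their whole length sls-2.2 and sls-2.3 were 97.3% identical and sls-2.1 and sls-2.2 92.7%, whereas sls-2.1 and sls-2.16 were 81.8% identical. Any pair of sls-2 genes was at least 69.7% identical, with a median of 78.2%, and no sls-2 gene had an exact copy. The pair sls-2.10 and sls-2.11 differed by the single change A65G, counted from 1 at the 5′ end.

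The other members were grouped by linking genes with at least 65% identity, and each family is named after a member. The annotation used here names no U class for them. The sup-39 family had 13 members of 156 to 170 bases and holds sup-6 and sup-39, known from genetics as U1 snRNA genes. The R07E5.16 family had 24 members with a median length of 102 bases. It carried ACAGAG in 22 members, the letters of a box well known from U6 RNA. The C47F8.9 family had 19 members of about 187 bases, and GTAGTA, letters that U2 RNA uses to pair with the branch point, stood in 18 of them. The F07C6.5 family had 12 members, the B0213.21 family 7 and the T11F9.15 family 5. Another 3 genes resembled spliced leader genes without having an sls name, and 6 genes joined no family.

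As a class, the snRNA genes had summits within 500 bp about as often as all nuclear genes. In the list made from all replicates together, 50 of 129 snRNA genes (38.8%) had a summit within 500 bp, against 39.9% of all nuclear genes. The share was higher for protein-coding genes (59.0%), tRNA genes (69.8%) and snoRNA genes (58.7%), and slightly higher for miRNA genes (41.8%). The replicate lists gave 50, 45 and 55 snRNA genes in replicates 1, 2 and 3, where 44.7%, 35.3% and 44.4% of all nuclear genes had a summit, and 38.8%, 34.9% and 42.6% of snRNA genes. A summit in all 3 replicate lists was found at 22 snRNA genes (17.1%), against 17.2% of all nuclear genes, and in at least 2 lists at 49 (38%), against 38.9%. These lists, apart from the final set, hold background entries beside peaks, since they were deposited as input for the IDR step. Among all nuclear genes are long protein-coding genes, with a median length of 2027 bases against 109 for snRNA genes, and a longer gene gives a wider window. With the distance taken from the 5′ end alone, 48 snRNA genes (37.2%) had a pooled summit, against 25.5% of all nuclear genes, 28.8% of protein-coding genes, 69.3% of tRNA genes and 55.8% of snoRNA genes. In all 3 replicate lists, 19 snRNA genes (14.7%) then had a summit, against 4.91% of all nuclear genes. Of 261 miRNA genes, 105 had a pooled summit by this measure and 34 a summit in all 3 replicate lists (13%). By the 5′ end, the share of snRNA genes with a pooled summit thus lay above that of protein-coding genes and below those of tRNA, snoRNA and miRNA genes, while in all 3 replicate lists it lay above that of miRNA genes.

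Strong entries were found at a larger share of snRNA genes than of all nuclear genes. The authors' signal value of each peak ranks the 24897 pooled entries, whose median signal was 9.35. Among the 1000 strongest pooled entries, 15 snRNA genes (11.6%) had a summit, against 3.08% of all nuclear genes, 4.14% of protein-coding genes, 18.8% of tRNA genes, 20.5% of snoRNA genes and 9.20% of miRNA genes. Among the 5000 strongest, 27 snRNA genes (20.9%) did, against 11.9% of all nuclear genes and 18.3% of protein-coding genes. The tRNA, snoRNA and miRNA genes reached 39.2%, 35.5% and 19.5%. With these 5000 entries the share was 61.1% for sls-2 genes and 14.4% for the other snRNA genes. The final set held a peak within 500 bp of 4 snRNA genes (3.1%), against 0.550% of all nuclear genes, 2.61% of tRNA genes, 5.49% of snoRNA genes and 2.3% of miRNA genes. The strongest summit at the 50 snRNA genes had a median percentile of 84.0 within the pooled list, against 61.5 for the 18688 nuclear genes with a summit, 85.4 for tRNA genes, 87.7 for snoRNA genes and 71.9 for miRNA genes. The median was 97.3 at the 13 sls-2 genes and 71.4 at the 37 other snRNA genes, the latter close to that of miRNA genes. No test was made of these shares, since a single condition was profiled.

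A larger share of the sls-2 genes than of the other snRNA genes had a summit. A pooled summit was present at 13 of 18 sls-2 genes (72.2%), against 37 of the 111 other snRNA genes (33.3%), which include the 12 sls-1 genes without a summit. All nuclear genes had a share of 39.9%, protein-coding genes 59.0% and tRNA genes 69.8%, so the tRNA share was close to that of the sls-2 genes. All 4 genes of the final set were sls-2 genes, against 0 of the 111 others. Among the 1000 strongest pooled entries, 8 of 18 sls-2 genes and 7 of the 111 other snRNA genes had a summit, on 7 distinct entries each. A summit in all 3 replicate lists was present at 10 sls-2 genes (55.6%), against 12 of the other snRNA genes (10.8%), 17.2% of all nuclear genes and 27.5% of tRNA genes. Such summits can lie apart: at 4 of the 13 sls-2 genes with a pooled summit, all 3 lists had one within 100 bp of it. That held for 5 of all 50 snRNA genes with a pooled summit. Replicate 1 alone had a summit at 16 sls-2 genes, and replicates 2 and 3 at 13 each. Because several sls-2 genes are neighbours, the 18 genes form 14 loci when genes closer than 1000 bp are joined.

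**Figure D1:**
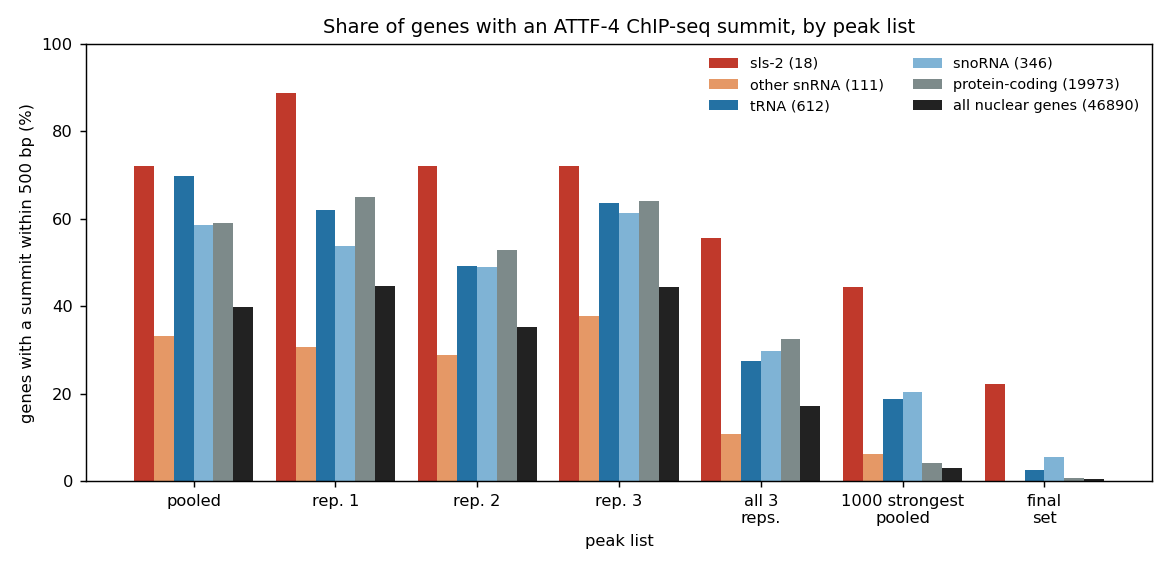
Bars give the percentage of genes (vertical axis) with a summit within 500 bp in each peak list (horizontal axis), for 6 sets of genes whose sizes are in the legend. The sls-2 genes stand above the 111 other snRNA genes in every list, with 44.4% against 6.31% among the 1000 strongest pooled entries.

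The strongest snRNA entry lay at sls-2.4 (chrI:4172206-4172315, plus strand), with a pooled signal of 46.4, rank 46 of the pooled list. Its signals were 12.9, 7.85 and 40.098 in replicates 1, 2 and 3, which are percentiles 99.4, 98.2 and 99.9 of their own lists. The scale of the signal differs between lists, so percentiles are what can be set side by side. Replicate values of snRNA genes are those of the strongest summit within 500 bp of the gene, which can lie apart from the pooled summit. The next entry had a pooled signal of 42.8, rank 59, and served sls-2.2 and sls-2.3, which lie tail to tail. Its summit lay within sls-2.2 and 466 bp from sls-2.3, near the edge of the window, and a weaker pooled summit lay 20 bp from sls-2.3. In replicates 1, 2 and 3 the strongest summit lay 90, 137 and 137 bp beyond the 3′ end of sls-2.2. The signals of these replicate summits were 17.3, 14.1 and 20.4, at percentiles 99.8, 99.8 and 99.6. The third, at sls-2.1, had a pooled signal of 37.5, rank 83, and signals of 12.8, 17.3 and 25.1, at percentiles 99.3, 99.9 and 99.8. The entries at these 4 genes were therefore within the top few percent of every replicate list, and the 4 genes rest on 3 peaks of the 147 nuclear final-set peaks. Their summits lay between coding genes: the nearest annotated coding 5′ end was that of egg-5 at 787 bp for sls-2.4, ins-13 at 1166 bp for sls-2.2 and sls-2.3, and ZK1248.17 at 588 bp for sls-2.1.

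The other sls-2 genes graded down from there. At sls-2.16, within an intron of the glutamate receptor gene glr-2 on the opposite strand, the pooled signal was 26.1 and the replicate percentiles 92.1, 98.1 and 97.1. The divergent pair sls-2.14 and sls-2.15, in an intron of W09D6.5, had separate pooled entries of 21.4 and 20.6. The strongest entry of replicate 1 was the same for both genes, at percentile 66.9. Replicate 2 had no summit at sls-2.14 and percentile 86.8 at sls-2.15, and replicate 3 had percentiles 98.5 and 97.3. Pooled signals were 19.5 at sls-2.6, in an intron of hgo-1, 16.5 at sls-2.7, 13.4 at sls-2.10, 12.95 at sls-2.8, 10.4 at sls-2.5 and 8.16 at sls-2.9. The last of these was below the median of the pooled list. The nearest coding 5′ end lay 427 bp from the summit at sls-2.6 (hgo-1), 217 bp at sls-2.7 (W06D4.3) and 212 bp at sls-2.8 (tim-1). At the other sls-2 genes of this paragraph it lay 1921 to 4833 bp away, and the sls-2.9 summit was in an exon of sepa-1.

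The pooled list had no summit within 500 bp of sls-2.11, sls-2.12, sls-2.13, sls-2.17 and sls-2.18. Of these, sls-2.12 and sls-2.18 had a summit in 2 replicate lists, sls-2.13 and sls-2.17 in 1, and sls-2.11 in none. The highest percentile among their summits was 75.9, at sls-2.17 in replicate 2. The near-identical pair shown above divided. A pooled entry lay 185 bp from the 5′ end of sls-2.10, while the nearest pooled summit to sls-2.11 was 1203 bp away. At sls-2.10, replicates 1 and 2 had percentiles 44.3 and 58.02, and replicate 3 had no summit. The replicate 1 summit lay 498 bp from the gene and 421 bp from the pooled summit, so its value belongs to another position. In replicate 2 the summit lay 10 bp from the pooled one.

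**Figure D2:**
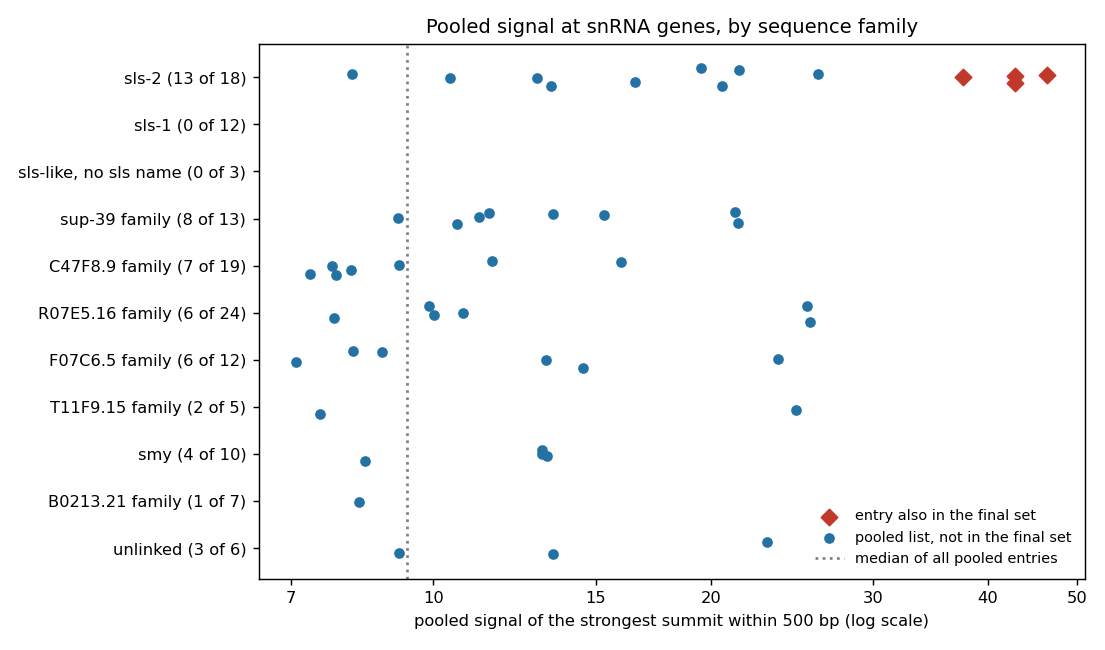
Each point is an snRNA gene with a pooled summit within 500 bp; the horizontal axis is the pooled signal of its strongest summit on a log scale and the rows are the families, with the number of genes that have a summit. Diamonds are entries of the final set, all in the sls-2 row between 37.5 and 46.4, and the sls-1 row is empty.

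The sls-1 genes, which encode SL1, had no summit in any list. The 12 copies lie in a tandem array on chromosome V, where 10 are identical 98-base genes and 2 are identical 68-base genes. Their nearest pooled summit was 3008 to 15744 bp away. None of the 36-base words starting within an sls-1 gene occurred once in the genome, and of the positions in the genes and their 500 bp flanks a median of 4.55% (range 0 to 28.6%) did. At the sls-2 genes the same median was 94.3%. The sources used here give neither the read length nor the treatment of reads with several matches, and the part of sequence copies in the missing summits was not tested. The 3 genes that resemble spliced leader genes without an sls name had no summit in any list either, with 81.7 to 100% of positions unique, and the nearest pooled summit to F20D1.21 lay 507 bp away.

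Copies ran through the other families too. Of 18 snRNA genes whose windows were under 50% unique, 1 had a pooled summit, as did 1 of 15 genes between 50 and 80%, and 48 of 96 genes (50%) from 80% upward. Among all nuclear genes the shares in these ranges were 5.17%, 25.4% and 41.5%. Windows under 50% unique made up 14% of snRNA genes, against 2.35% of all nuclear genes. Leaving sls-1 aside, 10 of 32 genes with an exact copy elsewhere (31.2%) had a pooled summit, against 40 of 85 genes without one (47.1%). Within the sls-2 genes, the 13 with a pooled summit had 89.8 to 100% unique positions and the 5 without had 70.7 to 92.7%, so that the ranges overlapped.

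**Figure D3:**
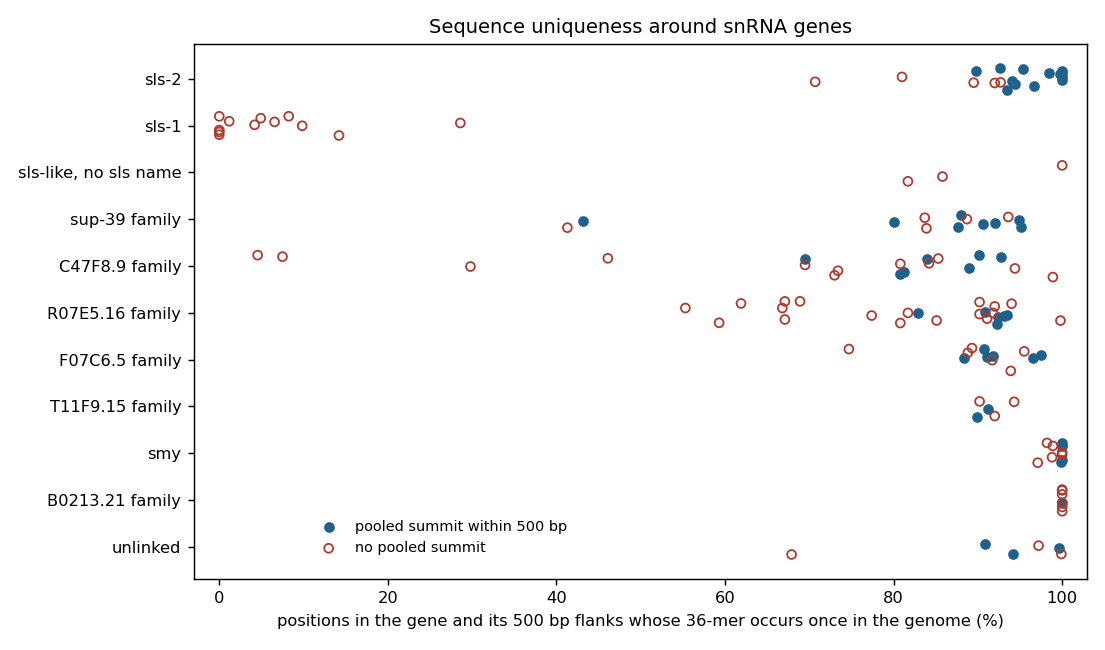
Each point is an snRNA gene; the horizontal axis is the percentage of positions in the gene and its 500 bp flanks whose 36-base word occurs once in the genome, and the rows are the families. Filled points have a pooled summit and open points have none; all 12 sls-1 genes are open and lie at or below 28.6%.

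Of the families without an sls or smy name, the sup-39 family was called most often, with a pooled summit at 8 of 13 genes (61.5%), followed by the F07C6.5 family with 6 of 12 and the T11F9.15 family with 2 of 5. The C47F8.9 family had one at 7 of 19 (36.8%), the R07E5.16 family at 6 of 24 (25%) and the B0213.21 family at 1 of 7. The smy genes had one at 4 of 10. With the same window 39.9% of all nuclear genes had a summit, a share that the first 3 of these families and the smy genes meet or pass with few genes each. Longer genes among all nuclear genes have wider windows, and by the 5′ end alone their share was 25.5%. For these families the counts were made with the gene window only.

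In the R07E5.16 family, F54D8.7 (chrIII:5080798-5080898, minus strand) and W05B2.8 (chrIII:10989679-10989780, plus strand) had the highest signals. F54D8.7, whose summit lay 947 bp from the 5′ end of cox-6A, had a pooled signal of 25.6 and replicate signals of 10.1, 3.98 and 11.7, at percentiles 97.9, 72.9 and 96.7. W05B2.8, in an intron of the dynein heavy chain gene dhc-4, had a pooled signal of 25.5 and replicate signals of 11.9, 6.71 and 11.5, at percentiles 99.04, 96.2 and 96.5. The replicate 1 summit lay 404 bp from W05B2.8 and 533 bp from the pooled summit, so its value belongs to another position. The other 4 members with a pooled summit ranged from 7.80 at Y9C9A.111, which no replicate list held, to 10.8 at R07E5.16. Y9C9A.111 and Y54G9A.8 were the only 2 of the 50 genes whose pooled summit had no counterpart within 500 bp of the gene in any replicate list.

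In the sup-39 family, sup-6 (chrII:12944803-12944967, minus strand) had a pooled signal of 21.4, with replicate signals of 5.97, 9.86 and 18.5, at percentiles 82.9, 99.4 and 99.5. The pooled summit at sup-6 was in an exon of F58G1.7, and the nearest replicate 3 summit lay 283 bp from it. H27M09.6 (chrI:6847137-6847303, minus strand) had a pooled signal of 21.3 and percentiles of 38.7, 96.7 and 79.5, and its summit lay 163 bp from the 5′ end of syp-4, a synaptonemal complex gene. At sup-39 the pooled signal was 13.5, replicates 1 and 3 reached percentiles 91.2 and 92.5, and replicate 2 had no summit. The annotated snRNA entry mir-1831 lies inside sup-39 and has the same peak.

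Among the remaining families the strong entries were single genes. C52E4.8 of the T11F9.15 family (chrV:11980118-11980261, plus strand) had a pooled signal of 24.8 and replicate signals of 5.77, 4.18 and 18.1, at percentiles 80.9, 76.7 and 99.4. Its summit lay 590 bp from the 5′ end of snr-4, which encodes an Sm protein, and this was the same entry as in the snr-4 promoter window. The nearest replicate 2 summit lay 399 bp from that pooled summit. F38E11.10 of the F07C6.5 family (chrIV:9444642-9444763, plus strand) had a pooled signal of 23.6, with percentile 99.8 in replicate 1 and percentiles 70.2 and 79.8 in replicates 2 and 3, and its summit was in an exon of the small heat shock gene hsp-12.3. The strongest replicate 3 summit lay at -230 bp from the 5′ end of F38E11.10, against 271 bp for the pooled summit. A weaker replicate 3 summit lay 51 bp from the pooled one. M163.13 (chrX:14476867-14476946, plus strand), which joined no family, had a pooled signal of 23.04, no summit in replicate 1, and percentiles 93.9 and 96.1 in replicates 2 and 3. Its summit was within the gene, 2450 bp from the nearest coding 5′ end, that of M163.11. In the C47F8.9 family the highest was F08G2.10 (chrII:13829305-13829491, minus strand) with a pooled signal of 16, where the replicates reached percentiles 99.3, 98.7 and 94.6. Its summit lay 912 bp from the 5′ end of F08G2.4. The smy genes reached 13.3 at smy-1, and smy-9 and smy-10 had 1 entry between them.

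**Figure D4:**
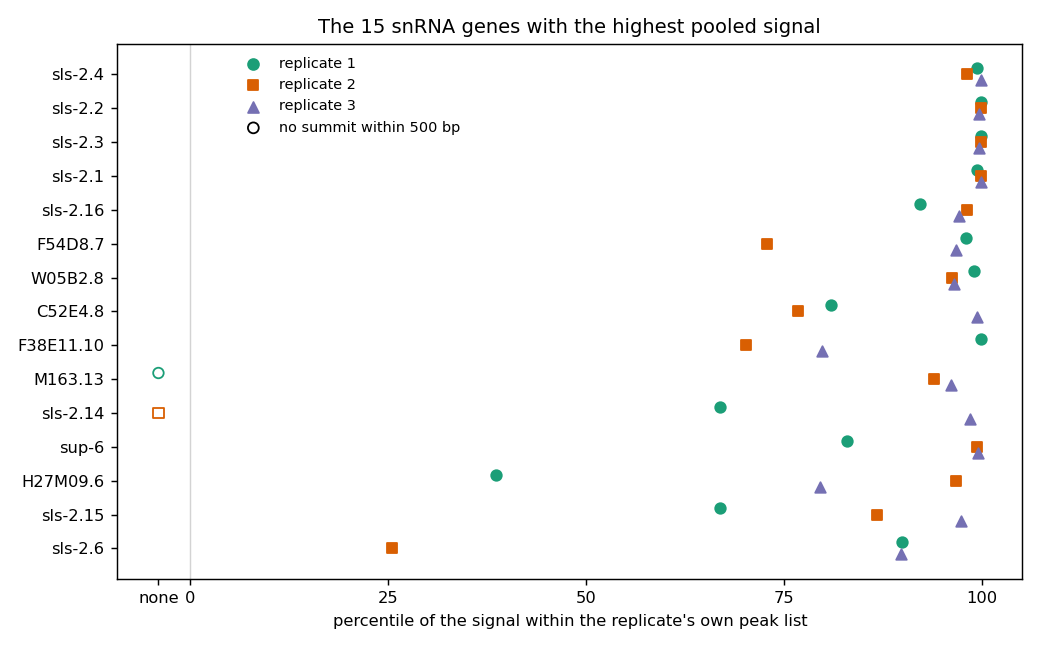
For the 15 snRNA genes with the highest pooled signal, listed from the highest down, the horizontal axis gives the percentile of the strongest summit within 500 bp in each replicate's own list; open symbols at the left mean no summit. At the top 4 genes all replicates lie above percentile 98, while H27M09.6 and sls-2.6 each have 1 replicate below percentile 40.

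Replicate summits scattered around the pooled summit. The 50 genes had 47 distinct pooled entries, of which 5 (10.6%) had a summit within 100 bp in all 3 replicate lists, against 2.57% of all nuclear pooled entries. Of the 14 distinct entries at snRNA genes among the 1000 strongest, 4 (28.6%) had a summit that near in all 3 lists, against 29.1% of all nuclear entries of that strength. Their replicate agreement was thus close to that of other entries as strong.

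The position of the summit varied between families. Relative to the annotated 5′ end, the strongest pooled summits of the 50 genes lay from -492 to 575 bp, with 17 upstream of the gene, 11 within it and 22 beyond its 3′ end. Of the 13 sls-2 genes, 6 had the summit within the gene, 6 beyond its 3′ end (that of sls-2.3 within sls-2.2) and 1 upstream, with a median of 100 bp into a transcript of about 110 bases. At sls-2.2, counted here as within the gene, the strongest summit of each replicate lay beyond the 3′ end. In the R07E5.16 family, 4 of 6 summits were upstream, at -28 bp for W05B2.8, -52 bp for Y9C9A.111, -73 bp for Y17G9A.90 and -83 bp for R07E5.16. In the sup-39 family, 3 of 8 lay upstream, 1 within and 4 beyond the gene. Counting every pooled summit in bins of 100 bp, the 100 bp before the 5′ end held 12.4 summits per 100 snRNA genes, against 20.3 per 100 tRNA genes, 18.5 per 100 snoRNA genes and 3.60 per 100 protein-coding genes. Pooled entries were 320 bp wide in the median, so positions within a gene of this size are resolved only roughly. The edge of the 500 bp window was sparse: the most distant of the strongest summits lay 466 bp from sls-2.3 and 492 bp from C53B4.9, and the nearest not counted 507 bp from F20D1.21 and 550 bp from F38E11.11.

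**Figure D5:**
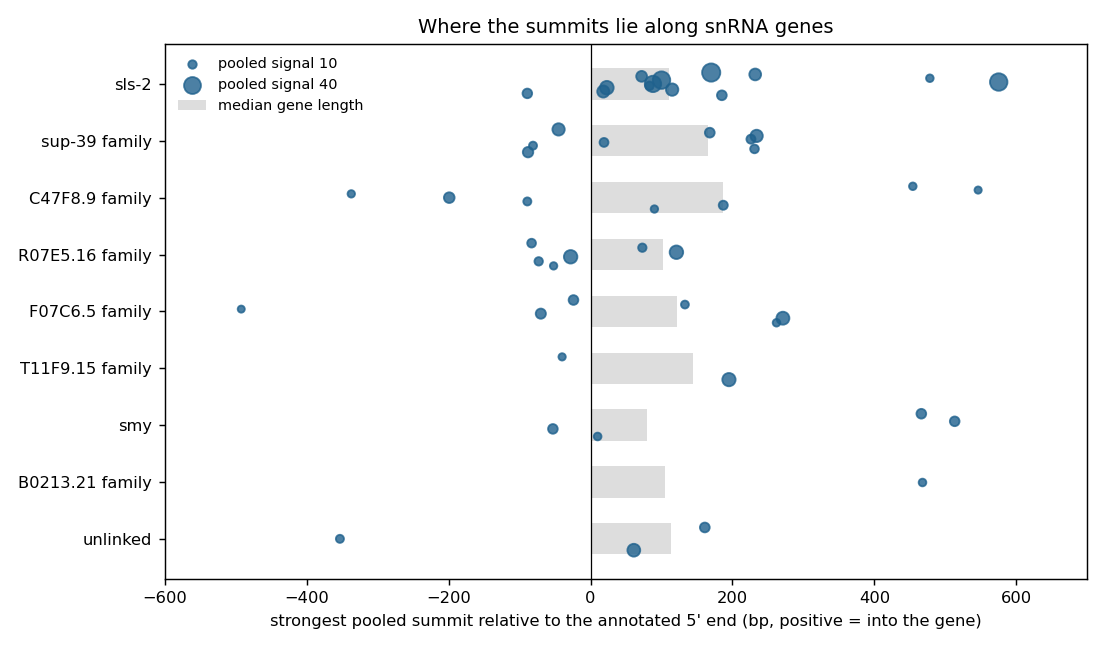
Each point is the strongest pooled summit of an snRNA gene, placed by its distance in bp from the annotated 5′ end (horizontal axis, positive into the gene), with the area growing with the pooled signal; grey bars give the median gene length of each family. Of the 13 sls-2 summits, which lie from -89 to 575 bp, 6 are within the gene, 6 beyond its 3′ end and 1 upstream. In the R07E5.16 family 4 of 6 lie upstream.

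The summits of the 50 genes fell between coding genes in 23 cases (46%), against 36.1% of all nuclear pooled summits. They fell in introns in 20 cases (40%), against 30.4%, and in exons in 7 (14%), against 33.5%. The nearest coding 5′ end was within 500 bp of the summit in 11 cases (22%), against 23.4%, and over 1000 bp away in 21 (42%), against 61.2%. The 50 cases are genes on 47 distinct entries, whereas the comparison counts each entry once. Since these summits were taken for lying near snRNA genes, their places depend on where those genes lie. The bases within 100 bp of the summit had a median GC content of 39.6% at snRNA genes and 37.3% at sls-2 genes, against 37.3% for all nuclear pooled entries and 45.8% for nuclear final-set peaks.

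The regions upstream carried shared letters. TGTCNG on the gene strand stood in the 100 bases before 79 of 129 snRNA genes (61.2%), against 5.38% of all nuclear genes, 10.3% of tRNA genes and 17.1% of snoRNA genes. On either strand it stood in 62.8% of snRNA genes, against 9.71% of all nuclear genes. Its first base lay at a median of -47, counted from the 5′ end. GAACCC stood in 33 snRNA genes (25.6%), against 0.804% of all nuclear genes, at a median of -59, and TATATAA in 18 (14%), against 2.43%. On either strand these shares were 27.1% against 1.37%, and 14% against 3.52%. TATATAA was found in 15 of 24 genes of the R07E5.16 family, at a median of -31, and in 0 of 18 sls-2 genes. The motifs do not overlap each other in the sequences printed next. They were chosen after the sequences had been seen.

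F38E11.10, with a pooled signal of 23.6, had none of the 3 motifs on the gene strand and is not printed here. Capitals mark the 3 motifs on the gene strand. The upstream 100 bases of some other genes with strong entries are given to show these letters beside the transcripts above. They are sls-2.2 (chrII:5543498-5543597), sls-2.3 (chrII:5544274-5544373), sls-2.1 (chrII:5844765-5844864), sls-2.16 (chrIII:7141291-7141390), sls-2.14 (chrIII:11090524-11090623), sup-6 (chrII:12944968-12945067), F54D8.7 (chrIII:5080899-5080998), W05B2.8 (chrIII:10989579-10989678), C52E4.8 (chrV:11980018-11980117) and M163.13 (chrX:14476767-14476866), from the same RefSeq assembly.
sls-2.2 upstream: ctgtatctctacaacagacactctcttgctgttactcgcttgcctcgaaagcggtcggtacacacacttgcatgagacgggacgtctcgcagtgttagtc
sls-2.3 upstream: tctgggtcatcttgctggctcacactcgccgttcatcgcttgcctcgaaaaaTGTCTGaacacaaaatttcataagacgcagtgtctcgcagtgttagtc
sls-2.1 upstream: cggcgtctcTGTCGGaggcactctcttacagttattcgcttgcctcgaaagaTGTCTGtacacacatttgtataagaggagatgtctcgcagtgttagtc
sls-2.16 upstream: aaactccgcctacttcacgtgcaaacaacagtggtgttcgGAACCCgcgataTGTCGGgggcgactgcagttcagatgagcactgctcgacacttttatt
sls-2.14 upstream: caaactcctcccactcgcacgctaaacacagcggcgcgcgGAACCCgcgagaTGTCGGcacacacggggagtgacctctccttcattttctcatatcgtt
sup-6 upstream: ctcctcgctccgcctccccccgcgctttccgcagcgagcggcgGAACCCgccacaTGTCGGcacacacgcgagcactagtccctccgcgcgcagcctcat
F54D8.7 upstream: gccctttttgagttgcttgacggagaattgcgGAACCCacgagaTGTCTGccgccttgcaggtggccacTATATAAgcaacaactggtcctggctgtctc
W05B2.8 upstream: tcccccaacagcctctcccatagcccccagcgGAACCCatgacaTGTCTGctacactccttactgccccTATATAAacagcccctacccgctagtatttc
C52E4.8 upstream: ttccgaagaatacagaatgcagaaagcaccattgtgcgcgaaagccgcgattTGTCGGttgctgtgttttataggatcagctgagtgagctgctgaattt
M163.13 upstream: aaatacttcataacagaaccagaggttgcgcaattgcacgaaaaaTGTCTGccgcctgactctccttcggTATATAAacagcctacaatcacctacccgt

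The letters stood at genes with and without a summit. Of the 79 genes with TGTCNG upstream 34 had a pooled summit, and of the 50 genes without it 16 did. For GAACCC the counts were 17 of 33 genes with it and 33 of 96 without. For TATATAA they were 6 of 18 and 44 of 111. Among the sls-2 genes 16 had TGTCNG, 11 of them with a pooled summit, and both genes without it had one, sls-2.2 of the final set among them. All 5 sls-2 genes with GAACCC had a pooled summit, as did 8 of the 13 without it. In the C47F8.9 family 18 of 19 genes had TGTCNG and 7 a pooled summit. In the sls-1 array 10 of 12 genes had it and none a summit.

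The protein genes that work with these RNAs were looked at in a window from 1000 bp upstream to 200 bp downstream of their 5′ ends. Of 76 genes for Sm and LSm proteins, snRNP proteins, splicing helicases, splice site recognition, SNAPc and snRNA maturation, 36 (47.4%) had a pooled summit there, against 32.2% of all protein-coding genes. None had a final-set peak, where 0.386% of protein-coding genes did, and 10 (13.2%) had a summit in all 3 replicate lists, against 7.17%. At the 36 genes the strongest entries had a median pooled percentile of 68.1, against 58.2 for protein-coding genes with a summit in that window. Genes are counted here: the neighbours rsp-1 and rsp-2 share an entry (pooled signal 18.64), and both are among the 36 and the 10. By role, a pooled summit was present at 3 of 7 Sm, 5 of 8 LSm, 0 of 2 U1 protein, 2 of 7 U2 protein, 4 of 11 U5 and tri-snRNP and 4 of 6 helicase and Prp19 genes. It was present at 2 of 3 SL snRNP, 5 of 11 splice site recognition, 3 of 7 SNAPc and 8 of 14 maturation genes. The 5 highest pooled signals were 24.8 at snr-4, 22.7 at snpc-3.4, which encodes a subunit of SNAPc, 20.5 at mog-4, a splicing helicase, 20.4 at ints-4, an Integrator subunit, and 19.85 at rsp-6, an SR protein. Replicate signals were 8.62, 3.94 and 8.98 at snpc-3.4 and 10.9, 2.05 and 8.89 at mog-4. At ints-4 they were 5.02, 4.855 and 8.32, and at rsp-6 replicate 1 had no summit and replicates 2 and 3 had 10.5 and 13.05. Every pooled signal of the list lay below the 4 sls-2 genes of the final set.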

How the data were processed

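ChIP-seq of tagged ATTF-4 was made in whole L4 larvae, in 5 libraries of 3 biological replicates. Per the notes deposited with the libraries, peaks were called for each biological replicate and for the pooled replicates against a control alignment, and the final set was made from these lists by the irreproducible discovery rate. The deposited lists hold a signal value per peak, which is the authors' own and was used only to rank and describe entries within a list, and a −log10 q-value. Only the ce11 lists were used, and every entry fitted the chromosome lengths of WBcel235, the same build. The sources used here name no aligner, peak caller or read length. The files hold no read counts, so depth is unknown and counting intervals were left out.

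Genes came from Ensembl release 115, and all 129 snRNA genes were named through RefSeq. The lists of replicates 2 and 3 were identified from the deposited notes. Each gene was given the strongest entry whose summit lay within 500 bp of the gene. Families were formed from global alignments (Biopython 1.88), linked at 65% identity or more. The uniqueness of 36-base words was computed on both strands. No test was made, because a single condition was profiled. Counts were set beside those of all nuclear genes, tRNA, snoRNA, miRNA and protein-coding genes. The distance and word computations were tested on simulated data. Members, families, motifs and gene lists were chosen with earlier results of these data known. Genes were named if they had a final-set summit, were among the 15 with the highest pooled signal, or had a summit in all 3 replicate lists (up to 15), with the 5 strongest protein genes. Other genes named, among them the rest of the sls-2 genes and those at the window's edge, were chosen after their values were seen. Of the protein gene list, snpc-1.5, ints-10 and ints-12 had no match in the annotation. Alternatives tried were other distances, stricter lists, loci in place of genes and leaving out each replicate.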

Additional observations from a re-analysis of the deposited data

How the results depend on the processing

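Of 50 recomputed values, 39 stayed within 1.5 times the reported count, or within the SD of 3.21 percentile points over the 3 replicate lists, and 11 moved further. With only the 5000 strongest pooled entries, 27 snRNA genes had a pooled summit instead of 50, and with only the 1000 strongest, 15. The latter list, in place of the final set, gave 15 genes instead of 4. With the 5000 strongest entries of each replicate list, 8 snRNA genes instead of 22 had a summit in all lists, 20 instead of 49 in at least 2, and 6 sls-2 genes instead of 10 in all lists, because stricter lists hold fewer entries. Among the 1000 strongest pooled entries 8 sls-2 genes remained of 13. Leaving out each replicate in turn gave 28 to 34 snRNA genes with a summit in all remaining lists, instead of 22 with all 3 and 49 with at least 2, because the lists required change, and 34 was reached without replicate 2. It gave 10 to 13 sls-2 genes. At a distance of 1000 bp the median pooled percentile was 76.5 instead of 84.0, and the cause was not tested. The sls-2 alternatives were added after seeing the data. No paired analysis was possible because a single group was profiled. Background entries in the lists, unknown depth and the 320 bp width of pooled entries limit what an individual weak entry shows.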
